A study of Caenorhabditis elegans with 18 samples.

Results

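Worms of Caenorhabditis elegans that carried the met-2(ok2307) allele were compared with the wild-type laboratory strain N2 while both were fed bacteria that silence cco-1. The comparison held 6 of the 18 libraries in the series, 3 of met-2(ok2307) cco-1 and 3 of N2 cco-1, and its members were every library that carried those strain and RNAi labels. Both groups were raised at 20 °C from hatching on a mix of empty-vector and cco-1 RNAi bacteria and were harvested whole as L4 larvae, the last larval stage. The polyadenylated RNA of a clarified whole-worm lysate was sequenced and counted per gene. The 3 met-2(ok2307) EV and 3 N2 EV libraries, from worms fed empty-vector bacteria without cco-1 RNAi, gave the strain difference on the control diet, and the 6 lin-65(n3441) libraries entered the fit for its estimate of spread. The labels name 1 met-2 allele and give no backcross, rescue or sex, and they do not say whether replicates were separate cultures, so a p-value measures the spread between these libraries, which may be technical.

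MET-2 is the worm relative of the mammalian enzyme SETDB1 and adds mono- and dimethyl marks to lysine 9 of histone H3, the marks that hold repeats and silent genes in heterochromatin. The gene targeted by cco-1 RNAi, now called cox-5B, encodes a nuclear-encoded subunit of cytochrome c oxidase, complex IV of the respiratory chain. Its silencing during larval growth starts the mitochondrial unfolded protein response, in which the chaperone genes hsp-6 and hsp-60 are induced, and MET-2 and its partner LIN-65 are known for a role in the chromatin changes of that response. The question of the comparison was how the transcriptome of stressed worms differs when MET-2 is lost.

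Depth ranged from 8274792 to 15363399 counts in the met-2(ok2307) cco-1 libraries and from 7591026 to 18445738 in the N2 cco-1 libraries, within 5141303 to 19261705 for the series. A gene with 3 counts therefore lay between 0.195 and 0.363 counts per 1000000 of the scaled library total (CPM) in the met-2(ok2307) libraries and between 0.163 and 0.395 CPM in the N2 libraries, a floor that covers counting error alone. Replicate 1 of met-2(ok2307) cco-1 stood apart. Its median absolute difference from the other 2 libraries of its group was 0.742 on the log2 scale, against 0.176 to 0.255 within N2 cco-1. The gap went with transcript length. With genes cut into 5 equal classes by transcript length, the shortest class (105 to 769 bases) had a median log2 level 0.64 higher in that library than in the other 2 of its group, and the longest class (2228 to 45903 bases) had a median difference of -0.78. Results that lean on this library are given below with and without it. Another library, replicate 1 of lin-65(n3441) EV, has labels that conflict, with lin-65(n3441) in its title and N2 in its strain field. It was grouped by its title, and its level of the lin-65 gene was 6.53 CPM, against 12 to 14.2 CPM in the N2 EV libraries. Its median absolute difference from the other libraries of its group was 0.659 on the log2 scale, also large for the series. The fit with 16 libraries leaves out this library and replicate 1 of met-2(ok2307) cco-1.

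The mutant allele was visible in its own gene. The met-2 gene (WBcel235 III:8375300-8380848, plus strand) had 6.13, 18.7 and 22.7 CPM in met-2(ok2307) cco-1 libraries, against 42.1, 58.3 and 45.9 CPM in N2 cco-1 libraries. Each mutant library lay below each N2 library, and the log2 fold change was -1.63 ± 0.34 (SE, n = 3 and 3; edgeR quasi-likelihood test, Benjamini-Hochberg adjusted p = 0.00273). Fitted with the 6 libraries of the comparison alone, its adjusted p was 0.0639. With replicate 1 of met-2(ok2307) cco-1 also left out of that fit, an alternative chosen after seeing the data, it was 0.00209. The cause of this change was not tested. On empty vector the gene had 22.8, 18.8 and 14.9 CPM in met-2(ok2307) worms and 37.1, 42.2 and 42.2 CPM in N2 worms. The lin-65(n3441) worms had 38.3 to 52.5 CPM under cco-1 RNAi and 35.9 to 42.8 CPM on empty vector. Counts per whole gene do not show which part of the met-2 transcript was left.

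The RNAi target did not separate the strains. The cox-5B gene had 438, 354 and 268 CPM in met-2(ok2307) cco-1 libraries and 283, 295 and 311 CPM in N2 cco-1 libraries, and the ranges overlapped (log2 fold change 0.25 ± 0.22, adjusted p = 0.452). Empty-vector levels were 611, 579 and 900 CPM in met-2(ok2307) worms and 741, 754 and 658 CPM in N2 worms. In lin-65(n3441) worms cox-5B ranged from 264 to 301 CPM under cco-1 RNAi and from 490 to 730 CPM on empty vector. The partner gene lin-65 had 7.21, 23.3 and 32.2 CPM in met-2(ok2307) cco-1 libraries, against 21.8, 27.4 and 29.1 CPM in N2 cco-1 libraries. Its difference was not called (log2 fold change -0.33 ± 0.36, adjusted p = 0.558), and without replicate 1 of met-2(ok2307) cco-1 the value changed sign to 0.037. Lin-65 levels were 20.1 to 25.6 CPM in met-2(ok2307) EV, 5.60 to 8.51 CPM in lin-65(n3441) EV, 8.16 to 11.4 CPM in lin-65(n3441) cco-1 and 12 to 14.2 CPM in N2 EV libraries.

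Of 15110 genes tested, 1697 were higher and 1449 lower in met-2(ok2307) cco-1 than in N2 cco-1 at an adjusted p under 0.05, which is 11.2% and 9.59% of those tested and 20.8% together. The median log2 fold change was 1.38 among genes called higher and -1.28 among genes called lower. Differences of at least 2 on the log2 scale were found for 367 of the higher and 276 of the lower genes. The 3 libraries of each group did not overlap for 3074 of the 3146 called genes, against 19.4% of the genes tested for each direction. Over the genes tested the median log2 fold change was 0.03. Leaving out replicate 1 of met-2(ok2307) cco-1 gave 1274 higher (8.43%) and 1678 lower (11.1%) genes, 19.5% together, with 2272 of the 3146 calls among them, and each of the 3146 kept its sign. The number higher fell to 1116, 1050 and 1087 without replicate 1, 2 or 3 of N2 cco-1, and the number lower fell to 862 without replicate 2 of N2 cco-1.

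**Figure D1:**
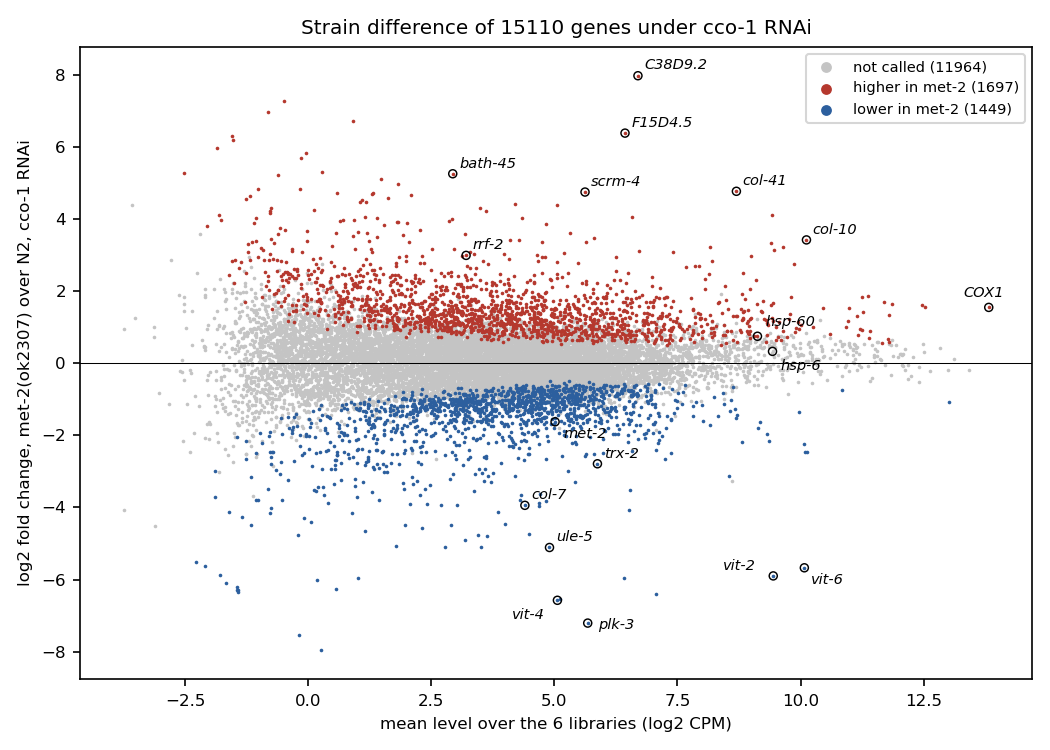
Each point is 1 of 15110 genes, with the mean level over the 6 libraries (log2 CPM) on the x axis and the log2 fold change of met-2(ok2307) over N2 under cco-1 RNAi on the y axis. Red points (1697) were higher in met-2(ok2307), blue points (1449) were lower and grey points were not called; plk-3 and the vitellogenins lie far below the bulk, and C38D9.2, F15D4.5, bath-45, scrm-4 and cuticle collagens far above it.

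Most genes of the mitochondrial genome were higher in the mutant. The mitochondrially encoded genes hold the core subunits of respiratory complexes I, III, IV and V. Of the 12 tested, 9 were called higher and 0 lower, with a median log2 fold change of 1.53 (1.65 without replicate 1 of met-2(ok2307) cco-1), where the median of the genes tested was 0.03 (0.01). COX1, the catalytic subunit of complex IV, had 16240, 22810 and 25660 CPM in met-2(ok2307) cco-1 libraries, against 7968, 6415 and 7784 CPM in N2 cco-1 libraries. The mutant libraries were all above the N2 libraries, with a log2 fold change of 1.54 ± 0.22 (adjusted p = 0.000159). COX2 had 5658, 4326 and 5254 CPM in the mutant and 1556, 1425 and 1752 CPM in N2 (log2 fold change 1.69 ± 0.25, adjusted p = 0.00021), again with no overlap. COX3, another subunit of complex IV, and CYTB, the cytochrome b of complex III, differed by 1.56 ± 0.27 and 1.64 ± 0.28 on the log2 scale (adjusted p = 0.000708 and 0.000809). COX1 also had 13450, 12020 and 14660 CPM in met-2(ok2307) worms on empty vector and 3548, 3068 and 4031 CPM in N2 worms on empty vector.

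The chaperones of the mitochondrial stress response differed in how clearly they separated the strains. Hsp-60, the chaperonin of the mitochondrial matrix, had 712, 593 and 792 CPM in met-2(ok2307) cco-1 libraries, against 418, 384 and 450 CPM in N2 cco-1 libraries. It was called higher in the mutant (log2 fold change 0.74 ± 0.21, adjusted p = 0.016) with groups that did not overlap, although the adjusted p was 0.0545 without replicate 3 of met-2(ok2307) cco-1, 0.0697 without replicate 2 of N2 cco-1 and 0.0735 in the fit of the 6 libraries alone. Hsp-6, the mitochondrial Hsp70 and the usual reporter of the response, had 248, 802 and 1251 CPM in met-2(ok2307) cco-1 libraries and 590, 566 and 681 CPM in N2 cco-1 libraries. Replicate 1 of the mutant lay below every N2 library and the other 2 above, so the groups overlapped and hsp-6 was not called (log2 fold change 0.32 ± 0.41, adjusted p = 0.624). Without that library the log2 fold change was 0.70 ± 0.32 with an adjusted p of 0.137, and without replicate 3 it turned to -0.22. With that library and replicate 1 of lin-65(n3441) EV both left out, the adjusted p was 0.0336.

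Among empty-vector libraries hsp-6 had 697, 715 and 459 CPM in met-2(ok2307), 165, 426 and 339 CPM in lin-65(n3441) and 214, 317 and 324 CPM in N2. Hsp-60 had 524, 557 and 492 CPM in met-2(ok2307) EV, 715, 439 and 454 CPM in lin-65(n3441) EV and 540, 462 and 529 CPM in N2 EV. Each N2 EV level of hsp-60 lay above each N2 cco-1 level, while each met-2(ok2307) EV level lay below each met-2(ok2307) cco-1 level. Diets were not tested against each other within a strain. The lin-65(n3441) cco-1 libraries held 489 to 559 CPM of hsp-6 and 497 to 580 CPM of hsp-60. Hsp-6 was lower in each N2 library on empty vector than in each N2 library under cco-1 RNAi. In met-2(ok2307) worms the 2 diets overlapped for hsp-6, but only through the met-2(ok2307) cco-1 library that stood apart (248 CPM). Without that library, each met-2(ok2307) EV level of hsp-6 also lay below each met-2(ok2307) cco-1 level.

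Of 13 mitochondrial chaperones and proteases tested, 3 were called higher and 0 lower, with a median of 0.37 (0.49 without replicate 1 of met-2(ok2307) cco-1). Besides hsp-60 these were phb-2, a prohibitin of the inner membrane (log2 fold change 0.59 ± 0.17, adjusted p = 0.0204), and spg-7, an inner membrane protease (0.64 ± 0.21, adjusted p = 0.0407). Phb-2 passed the threshold in neither the fit without replicate 1 of met-2(ok2307) cco-1 (adjusted p = 0.0651) nor those without replicate 1 or 2 of N2 cco-1 (0.0599 and 0.0797). Spg-7 missed it without replicate 2 or 3 of met-2(ok2307) cco-1 (0.0715 and 0.171) and without replicate 1, 2 or 3 of N2 cco-1 (0.124, 0.119 and 0.0631). Of 26 regulators of mitochondrial stress, 2 were higher and 1, met-2 itself, was lower, and 1 and 1 without replicate 1 of met-2(ok2307) cco-1; the share higher was 7.69%, below that of the genes tested, and the median was -0.08. The higher ones were drp-1, the dynamin of mitochondrial fission (0.62 ± 0.19, adjusted p = 0.0289), and nhr-80, a nuclear hormone receptor (0.72 ± 0.25, adjusted p = 0.0482). Drp-1 missed the threshold without replicate 2 or 3 of met-2(ok2307) cco-1 (0.086 and 0.0572) or replicate 1 or 2 of N2 cco-1 (0.0856 and 0.111), and nhr-80 without replicate 1 or 3 of met-2(ok2307) cco-1 (0.0647 and 0.141) or any 1 of the N2 cco-1 libraries (0.112 to 0.119). In the fit of the 6 libraries alone the adjusted p-values were 0.118 for phb-2, 0.175 for spg-7, 0.135 for drp-1 and 0.129 for nhr-80.

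Mitochondrial import and respiratory chain genes gave smaller sets. Of 17 import genes, 3 were higher and 0 lower (median 0.56), led by tomm-20, a receptor of the outer membrane translocase. It had 107, 95.8 and 112 CPM in met-2(ok2307) cco-1 libraries, against 46.0, 37.6 and 49.6 CPM in N2 cco-1 libraries (log2 fold change 1.24 ± 0.18, adjusted p = 0.000189). The mutant libraries were each at about the same level and clear of the N2 libraries. Of 60 nuclear-encoded respiratory chain genes, 10 were higher and 1 lower (median 0.46), where 11.2% of the genes tested were higher. Without replicate 1 of met-2(ok2307) cco-1 5 were higher and 2 lower (median 0.28), a share of higher genes near the 8.43% of the genes tested. Gas-1, a complex I subunit, had 353, 330 and 442 CPM in the mutant and 201, 207 and 220 CPM in N2 (log2 fold change 0.84 ± 0.17, adjusted p = 0.00277, and 0.0579 in the fit of the 6 libraries alone). Cox-6A, a complex IV subunit, was also higher (0.98 ± 0.24, adjusted p = 0.00763). Mitochondrial ribosomal proteins had 4 higher and 1 lower of 67 (5.97% higher, below the share of the genes tested), and 1 higher and 1 lower without that library, where their median was 0.03 instead of 0.34.

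**Figure D2:**
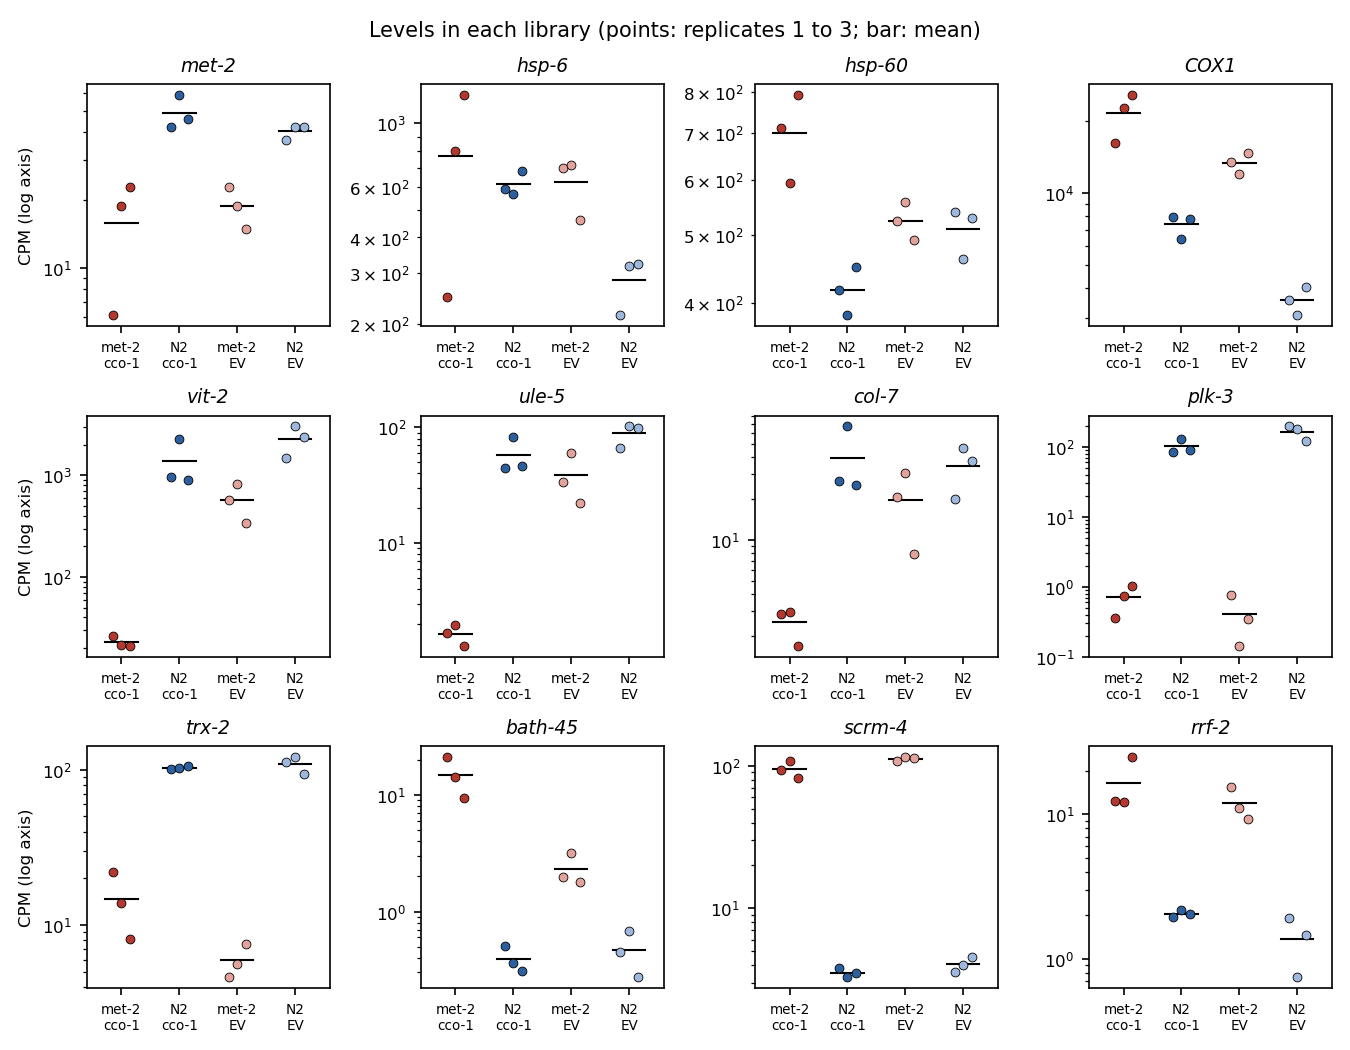
Each panel shows the CPM of 1 gene on a log axis in met-2(ok2307) cco-1, N2 cco-1, met-2(ok2307) EV and N2 EV libraries; points are replicates 1 to 3 from left to right and the bar is the mean. The groups under cco-1 RNAi do not overlap for any gene shown except hsp-6, where replicate 1 of the mutant (248 CPM) lies below the N2 libraries. Separation was a condition for genes named by fold change, among them vit-2, ule-5, col-7, plk-3, bath-45 and scrm-4.

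Of the 48 gene lists the yolk protein genes had the lowest median. The 6 vitellogenins, lipid-carrying yolk precursors made by the intestine for the oocytes, were lower in 6 of 6 cases, with log2 fold changes between -6.58 and -5.67 and a median of -6.18. Vit-2 had 26.4, 21.5 and 20.8 CPM in met-2(ok2307) cco-1 libraries, against 954, 2264 and 896 CPM in N2 cco-1 libraries. Every mutant library was far below every N2 library, with a log2 fold change of -5.90 ± 0.57 (adjusted p = 5.09e-06). The vitellogenins were among the genes named for the largest fold changes, a rule that required separated libraries. Vit-6 had 35.3, 43.8 and 45.3 CPM in the mutant and 1467, 3462 and 1425 CPM in N2 (-5.67 ± 0.64, adjusted p = 1.99e-05). The summed level of the family was 69.3, 72.1 and 73.5 CPM in met-2(ok2307) cco-1, against 2780, 6730 and 2650 CPM in N2 cco-1 libraries. On empty vector the sums were 1690, 2480 and 1060 CPM in met-2(ok2307) and 3830, 8520 and 6520 CPM in N2 worms. Vit-3, vit-4 and vit-5 are close copies of one another, so reads may have been shared between them, and their log2 fold changes of -6.53, -6.58 and -6.41 are not independent of one another. The lin-65(n3441) cco-1 libraries had 35.9, 147 and 74.6 CPM of vit-2, which lay between the met-2(ok2307) cco-1 and the N2 cco-1 levels.

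Ule-5, ule-3, col-7, col-62 and tbh-1 were also among the genes with the largest falls, which is why they are named, and they do not stand for a group. Ule-5, named for its place in the uterine lumen, had 1.66, 1.98 and 1.28 CPM in met-2(ok2307) cco-1 libraries, against 44.7, 82.9 and 46.7 CPM in N2 cco-1 libraries (log2 fold change -5.11 ± 0.56, adjusted p = 1.52e-05). Its relative ule-3 had 4.47, 1.91 and 1.28 CPM in the mutant and 27.5, 51.5 and 31.6 CPM in N2 (-3.81 ± 0.49, adjusted p = 7.84e-05). Neither gene overlapped between the strains, which was a condition of the rule by which they were named. The cuticle collagen col-7 had 2.88, 3.00 and 1.67 CPM in the mutant and 26.9, 67.1 and 25.2 CPM in N2 (-3.94 ± 0.63, adjusted p = 0.000454), and col-62 differed by -3.29 ± 0.62 (adjusted p = 0.0015). Tbh-1, which makes octopamine from tyramine in a few neurons and gonadal sheath cells, differed by -3.56 ± 0.51 (adjusted p = 0.000189). In N2 cco-1 each of these genes, like the vitellogenins, had its highest level in replicate 2. Vit-2, ule-3 and tbh-1 were also highest in replicate 2 of N2 EV, met-2(ok2307) EV and both lin-65(n3441) groups. In met-2(ok2307) cco-1 they were highest in replicate 1, and the cause was not tested.

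Oocyte and eggshell genes were lower as a group. Of 24 tested, 0 were higher and 20 lower, with a median log2 fold change of -1.65, and 16 were lower without replicate 1 of met-2(ok2307) cco-1. Egg-2, an oocyte surface protein needed for fertilization, had 4.61, 10.4 and 4.37 CPM in met-2(ok2307) cco-1 libraries, against 23.7, 33.6 and 29.4 CPM in N2 cco-1 libraries (-2.14 ± 0.36, adjusted p = 0.000621). Cbd-1, a layer protein of the forming eggshell, had 83.2, 109 and 55.9 CPM in the mutant and 206, 302 and 229 CPM in N2 (-1.57 ± 0.29, adjusted p = 0.00115). The highest mutant library stayed below the lowest N2 library for both genes. Oma-2, needed for oocyte maturation, and pie-1, a maternal repressor of transcription in the germline, differed by -1.92 ± 0.36 and -1.37 ± 0.25 (adjusted p = 0.00139 and 0.00121). The summed level of the list was 602, 1380 and 733 CPM in met-2(ok2307) cco-1 and 2230, 3470 and 2740 CPM in N2 cco-1 libraries. In whole worms, fewer cells of a type and less RNA per cell cannot be told apart.

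Other germline genes moved the same way in smaller numbers. Of 30 germ granule and meiosis genes, 12 were lower and 0 higher, with a median of -0.76. Syp-2, a protein of the synaptonemal complex, had 24.4, 20.3 and 12.8 CPM in met-2(ok2307) cco-1 libraries, against 50.7, 67.5 and 55.6 CPM in N2 cco-1 libraries (-1.59 ± 0.27, adjusted p = 0.000691). Deps-1, a germ granule protein, had 33.3, 41.1 and 32.8 CPM in the mutant and 68.3, 74.1 and 73.2 CPM in N2 (-1.01 ± 0.19, adjusted p = 0.00124). The strains did not overlap for either gene. The summed level of the list was 1140, 1550 and 1320 CPM in the mutant and 1940, 2090 and 1960 CPM in N2.

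Among 31 major sperm protein genes, 11 were lower and 0 higher (median -0.84), and 21 were lower without replicate 1 of met-2(ok2307) cco-1. These genes are nearly identical to one another, so the count of any single member is uncertain; the family summed to 1560, 937 and 443 CPM in met-2(ok2307) cco-1 and to 1860, 2800 and 1860 CPM in N2 cco-1 libraries. Of 85 other sperm genes, 4 were higher and 10 lower, and 2 higher and 28 lower without that library, with medians of -0.40 and -0.71. With that library kept, the share lower was 11.8%, near the 9.59% of the genes tested. Sss-1, a sperm-specific gene, had 33.9, 75.8 and 46.1 CPM in the mutant and 212, 286 and 180 CPM in N2 (-2.12 ± 0.32, adjusted p = 0.000305). Among histone genes 3 of 35 were higher (8.57%) and 7 lower (20%), against 11.2% and 9.59% of the genes tested. Without that library 2 were higher and 4 lower, a share of lower genes near the 11.1% of the genes tested. His-64 had 7.78, 12.4 and 25.0 CPM in the mutant and 181, 252 and 76.5 CPM in N2 (-3.50 ± 1.15, adjusted p = 0.0381), and the copies of histone genes are near-identical. Its adjusted p was 0.106, 0.0973 and 0.055 without replicate 1, 2 or 3 of met-2(ok2307) cco-1 and 0.0718 and 0.104 without replicate 1 or 2 of N2 cco-1.

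**Figure D3:**
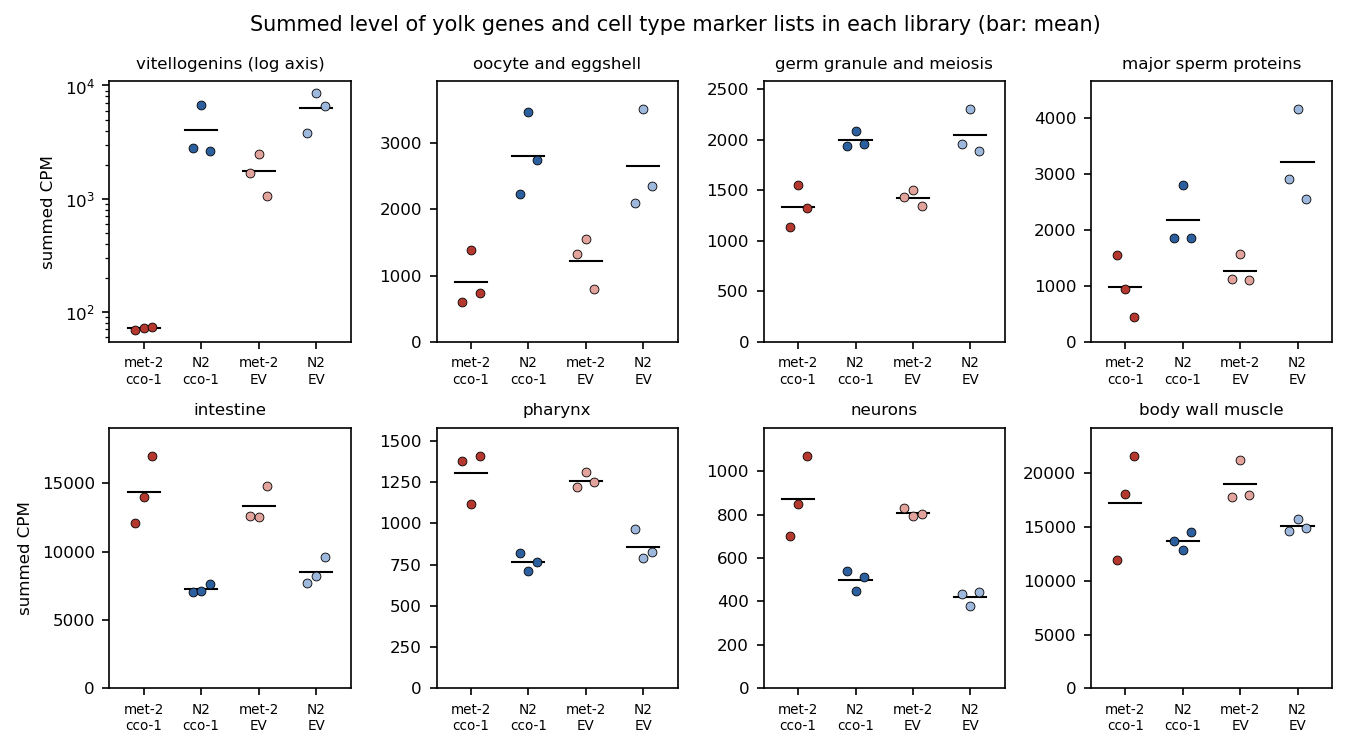
Each panel sums the CPM of the vitellogenins or of a cell type marker list in each library of met-2(ok2307) cco-1, N2 cco-1, met-2(ok2307) EV and N2 EV; points are replicates 1 to 3, bars are means, and the vitellogenin axis is logarithmic. Vitellogenin sums were 69.3 to 73.5 CPM in met-2(ok2307) cco-1 and 2650 to 6730 CPM in N2 cco-1, while intestine, pharynx and neuron sums were higher in the mutant.

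Marker genes of several somatic tissues were higher. Of 22 neuron genes, 9 were higher and 0 lower (median 0.68), and the list summed to 701, 849 and 1070 CPM in met-2(ok2307) cco-1 and to 541, 447 and 511 CPM in N2 cco-1 libraries. Unc-25, which makes the transmitter GABA, had 26.6, 19.4 and 26.8 CPM in the mutant and 11.6, 8.85 and 14.0 CPM in N2 (1.08 ± 0.23, adjusted p = 0.00386). Sbt-1, a chaperone of neuropeptide processing, was also higher (0.82 ± 0.20, adjusted p = 0.00764). In the fit of the 6 libraries alone the adjusted p was 0.0625 for unc-25 and 0.0727 for sbt-1. Of 14 pharynx genes, 6 were higher and 0 lower (median 0.77), with marg-1, a gene of the pharynx, at 68.3, 58.2 and 68.7 CPM in the mutant and 22.8, 25.5 and 21.2 CPM in N2 (1.49 ± 0.27, adjusted p = 0.00107). Body wall muscle had 1 higher and 1 lower of 16 (2 and 1 without replicate 1 of met-2(ok2307) cco-1), hypodermis and seam had 1 higher and 0 lower of 13 (2 and 0), and the sums of both lists overlapped between strains. With that library kept, their shares higher, 6.25% and 7.69%, were below the 11.2% of the genes tested.

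Of 13 intestine genes, 6 were higher and 1 lower (median 0.64), although the vitellogenins are made in that tissue. Asp-1, an aspartic protease of the gut, had 6295, 8519 and 10720 CPM in met-2(ok2307) cco-1 libraries, against 2642, 2649 and 3007 CPM in N2 cco-1 libraries (1.62 ± 0.25, adjusted p = 0.000286). Pgp-1, a gut transporter of the P-glycoprotein family, had 38.5, 42.1 and 44.2 CPM in the mutant and 23.9, 17.2 and 21.6 CPM in N2 (0.99 ± 0.21, adjusted p = 0.00352, and 0.0512 in the fit of the 6 libraries alone). Lys-4, a lysozyme gene, was the lower member (-1.12 ± 0.28, adjusted p = 0.00964). The list summed to 12100, 14000 and 17000 CPM in the mutant and to 7080, 7110 and 7630 CPM in N2. The sums of the oocyte, germ granule and major sperm protein lists lay below N2 in the same libraries in which the neuron, pharynx and intestine sums lay above it, and the part of tissue proportion or developmental timing in the other gene groups was not tested.

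Neuropeptide genes, which encode the flp, nlp and insulin-like signals, had 39 higher and 0 lower of 121 tested (median 0.83), and 26 higher and 1 lower without replicate 1 of met-2(ok2307) cco-1. Flp-1, an FMRFamide-like peptide of a pair of head interneurons, had 285, 192 and 223 CPM in met-2(ok2307) cco-1 libraries, against 84.4, 57.0 and 57.1 CPM in N2 cco-1 libraries (1.82 ± 0.27, adjusted p = 0.00021). The insulin-like gene ins-35 had 10.0, 7.42 and 7.83 CPM in the mutant and 1.01, 1.21 and 1.43 CPM in N2 (2.77 ± 0.34, adjusted p = 4e-05). Both separated the strains fully. Flp-20 and nlp-16 differed by 1.48 ± 0.26 and 1.47 ± 0.24 (adjusted p = 0.000782 and 0.000489). Neuropeptide transcripts are short, and the list summed to 5930 CPM in replicate 1 and to 3540 and 3120 CPM in the other 2 mutant libraries, against 1940, 2240 and 1940 CPM in N2.

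Immune effectors were higher in the mutant. Of 80 lysozyme, saposin-like, antimicrobial peptide and related genes tested, 38 were higher and 3 lower (median 1.18), and 22 were higher and 3 lower without replicate 1 of met-2(ok2307) cco-1 (median 0.63). Lys-7, a lysozyme gene of the gut, had 106, 49.9 and 39.4 CPM in met-2(ok2307) cco-1 libraries, against 9.02, 8.37 and 6.44 CPM in N2 cco-1 libraries (3.04 ± 0.36, adjusted p = 3.3e-05). Dod-24, an infection-responsive gene, had 181, 73.9 and 74.0 CPM in the mutant and 26.2, 21.1 and 25.2 CPM in N2 (2.18 ± 0.29, adjusted p = 9.17e-05). The strains were apart for both genes, with replicate 1 the highest mutant library. Abf-5, of the antibacterial factor family, differed by 2.47 ± 0.31 (adjusted p = 4.51e-05). The summed level of the list was 18700, 9160 and 7720 CPM in the mutant and 5890, 5620 and 5390 CPM in N2.

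C-type lectins, carbohydrate-binding proteins that are often regulated by infection, had 56 higher and 9 lower of 129 (median 0.95), and 42 higher and 11 lower without that library. Clec-17 had 15.6, 15.9 and 10.9 CPM in met-2(ok2307) cco-1 libraries, against 1.60, 0.606 and 2.25 CPM in N2 cco-1 libraries (3.17 ± 0.37, adjusted p = 3.08e-05). Clec-265 had 679, 357 and 306 CPM in the mutant and 86.2, 71.4 and 109 CPM in N2 (2.33 ± 0.29, adjusted p = 5.46e-05). The lowest mutant library was above the highest N2 library in each case. Clec-42 had 5.19, 5.79 and 8.73 CPM in the mutant and 0.674, 0.121 and 0.409 CPM in N2 (3.92 ± 0.57, adjusted p = 0.000201). Of 25 pals genes, a family tied to the response to intracellular infection, 11 were higher and 0 lower (median 1.57), but 4 were higher without replicate 1 of met-2(ok2307) cco-1. Pals-14 had 10.0, 4.97 and 5.01 CPM in the mutant and 0.421, 0.485 and 0.409 CPM in N2 (3.93 ± 0.51, adjusted p = 8.33e-05).

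Detoxification families followed with smaller shares. Of 63 UDP-glucuronosyltransferase genes, whose products attach sugars to small molecules, 22 were higher and 2 lower (median 0.77), and 15 and 2 without replicate 1 of met-2(ok2307) cco-1. Ugt-66 had 120, 55.0 and 85.2 CPM in met-2(ok2307) cco-1 libraries, against 28.1, 31.0 and 23.1 CPM in N2 cco-1 libraries (1.66 ± 0.25, adjusted p = 0.000312). Cytochrome P450 genes had 15 higher and 5 lower of 54, and 7 and 4 without that library. Cyp-33C8 had 255, 241 and 227 CPM in the mutant and 60.3, 67.1 and 74.4 CPM in N2 (1.84 ± 0.30, adjusted p = 0.000516), with even levels within each strain. Glutathione S-transferases had 8 higher and 1 lower of 45, and 3 and 1 without that library, a share of higher genes below the 8.43% of the genes tested. Gst-24 had 80.8, 34.5 and 34.0 CPM in the mutant and 5.14, 4.61 and 9.25 CPM in N2 (2.95 ± 0.50, adjusted p = 0.000711).

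**Figure D4:**
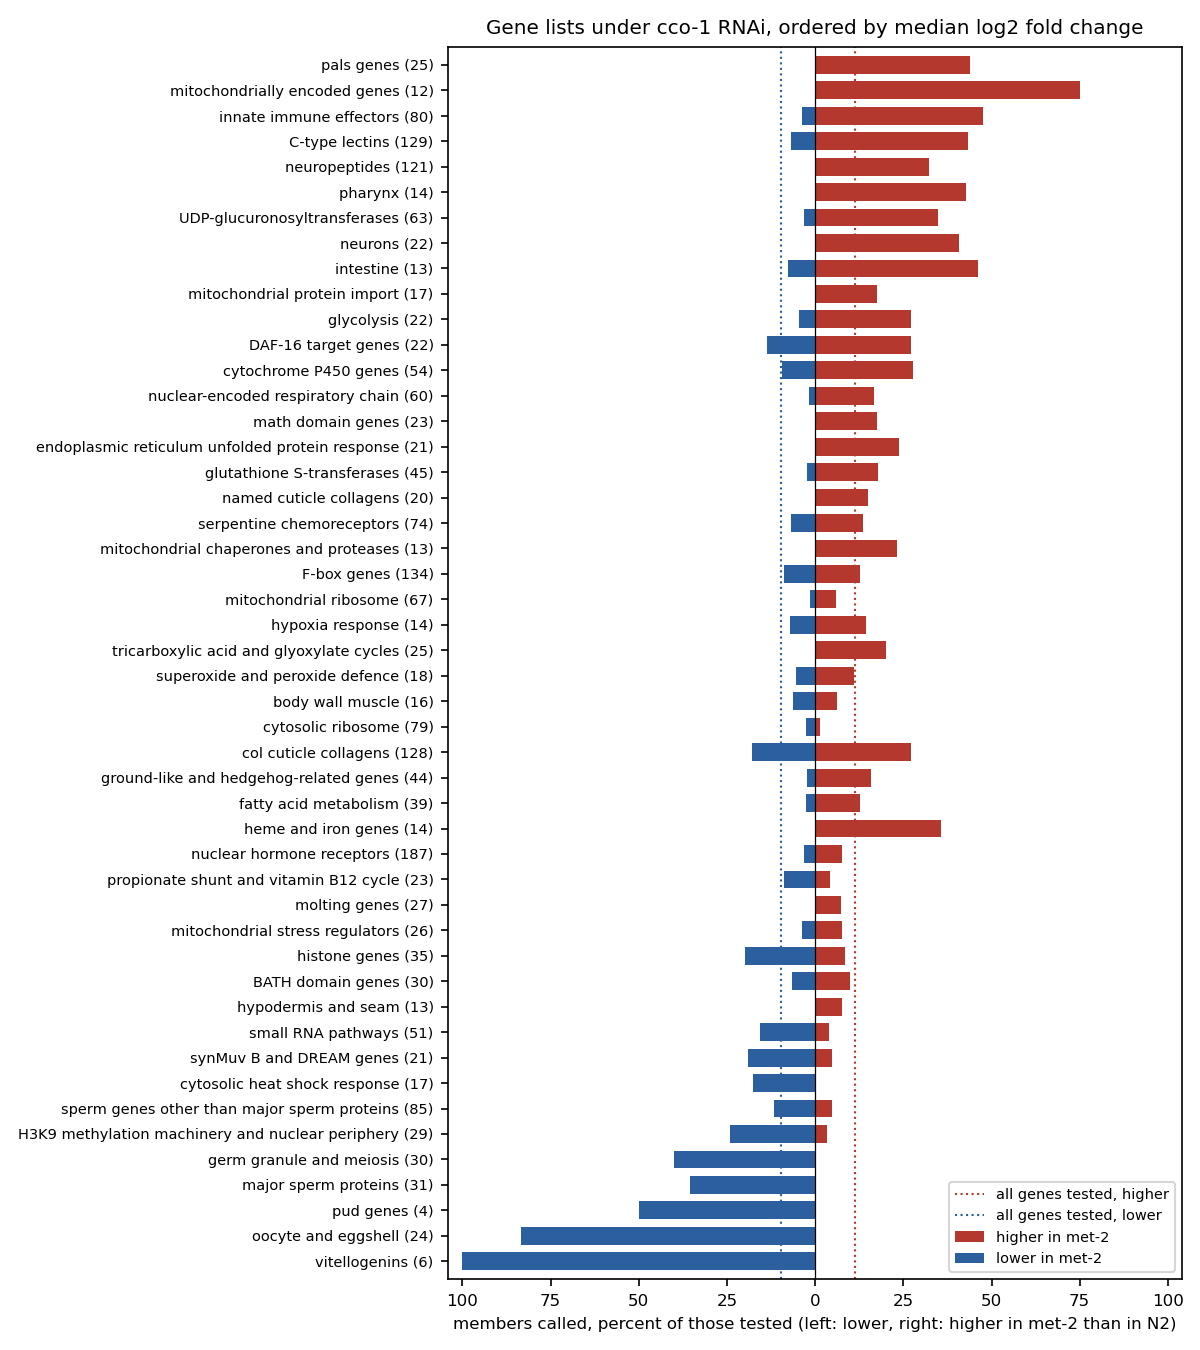
Bars give the percent of tested members called higher (right, red) or lower (left, blue) in met-2(ok2307) cco-1 than in N2 cco-1 for 48 gene lists, ordered by median log2 fold change, with the number tested in parentheses. Dotted lines mark the shares over the 15110 genes tested, 11.2% higher and 9.59% lower; vitellogenins and oocyte genes lie furthest to the left and mitochondrially encoded genes furthest to the right.

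Cuticle collagens changed in both directions. Of 128 col genes, 35 were higher and 23 lower (median 0.20), and 29 and 26 without replicate 1 of met-2(ok2307) cco-1 (median -0.05). Col-41 had 695, 592 and 1114 CPM in met-2(ok2307) cco-1 libraries, against 35.8, 23.4 and 29.0 CPM in N2 cco-1 libraries (4.76 ± 0.50, adjusted p = 1.12e-05). Col-10 had 2403, 1680 and 2018 CPM in the mutant and 171, 178 and 222 CPM in N2 (3.42 ± 0.29, adjusted p = 1.59e-06). For both the mutant libraries lay several times above the N2 libraries. Both were among the genes named for the largest fold changes, which required separated libraries. Col-176, col-3, col-54 and col-169 were also among the genes furthest up, at 4.10, 4.04, 3.37 and 3.23 on the log2 scale. In the other direction col-81 had 574, 315 and 143 CPM in the mutant and 1392, 2931 and 1412 CPM in N2 (-2.47 ± 0.48, adjusted p = 0.00166), and col-129 had 568, 316 and 131 CPM against 1175, 2941 and 1447 CPM (-2.45 ± 0.47, adjusted p = 0.00162). The levels of these 2 genes ran almost in parallel over the 6 libraries, and paralogous collagens may share reads. The collagens named for body shape, such as dpy-7 and rol-6, had 3 higher and 0 lower of 20 (1 and 1 without replicate 1 of met-2(ok2307) cco-1), and molting genes 2 higher and 0 lower of 27 (1 and 0); dpy-7 itself was not called (0.78 ± 0.40, adjusted p = 0.179). Ground-like and hedgehog-related genes had 7 higher and 1 lower of 44, and the 4 pud genes 0 higher and 2 lower (0 and 1 without that library). Shares higher were 15% for the body shape collagens, 7.41% for molting genes and 15.9% for the ground-like list, against 11.2% of the genes tested. Grd-13, of the groundhog branch of hedgehog-related proteins, had 127, 70.7 and 110 CPM in the mutant and 7.75, 9.10 and 10.9 CPM in N2 (3.47 ± 0.29, adjusted p = 1.59e-06).

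Several genes of the heterochromatin pathway itself were lower. Of 29 genes of H3K9 methylation and the nuclear periphery, 1 was higher and 7 lower, with a median of -0.56, and met-2 was among the 7. The share lower was 24.1%, against 9.59% of the genes tested, and 1 was higher and 8 lower without replicate 1 of met-2(ok2307) cco-1. Cec-5, a chromodomain protein, had 54.3, 65.1 and 61.0 CPM in met-2(ok2307) cco-1 libraries, against 114, 144 and 141 CPM in N2 cco-1 libraries (-1.14 ± 0.18, adjusted p = 0.000479). Let-418, the Mi-2 chromatin remodeler, had 95.4, 84.5 and 81.6 CPM in the mutant and 149, 148 and 151 CPM in N2 (-0.78 ± 0.17, adjusted p = 0.00413, and 0.0528 in the fit of the 6 libraries alone). Cec-8, another chromodomain gene, was the higher member, with 7.57, 9.19 and 7.83 CPM in the mutant and 3.29, 2.55 and 2.40 CPM in N2 (1.58 ± 0.30, adjusted p = 0.00152). These 3 genes had narrow ranges within each strain and no overlap. Among 21 genes listed as synMuv B and DREAM genes, a list that also holds met-2, 1 was higher and 4 lower (19%). Without replicate 1 of met-2(ok2307) cco-1 these counts were 1 and 3. The higher one was lin-8, which belongs to synMuv class A and not B (1.09 ± 0.23, adjusted p = 0.00332). Lin-37, a DREAM subunit, was lower (-0.99 ± 0.21, adjusted p = 0.00286).

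Small RNA pathway genes had 2 higher (3.92%) and 8 lower (15.7%) of 51 (median -0.28), against 11.2% and 9.59% of the genes tested. The counts were 2 and 9 without replicate 1 of met-2(ok2307) cco-1, and 2 and 6 with DESeq2 size factors in place of TMM scaling. Rrf-2, an RNA-dependent RNA polymerase gene, had 12.3, 12.1 and 24.8 CPM in met-2(ok2307) cco-1 libraries, against 1.94, 2.18 and 2.04 CPM in N2 cco-1 libraries (2.99 ± 0.35, adjusted p = 3.3e-05). The level of rrf-2 was 9.53 to 12.2 CPM in the 3 lin-65(n3441) cco-1 libraries. Mut-7, an exonuclease of the mutator complex, had 35.1, 57.1 and 38.1 CPM in the mutant and 100, 76.6 and 80.4 CPM in N2 (-0.98 ± 0.21, adjusted p = 0.00347). The germline polymerase ego-1 differed by -1.05 ± 0.26 (adjusted p = 0.00814), and the Argonaute gene alg-5 by -1.31 ± 0.31 (adjusted p = 0.00664). In the fit of the 6 libraries alone the adjusted p was 0.0622 for mut-7 and 0.0751 for ego-1. Many of these genes are expressed in the germline, whose oocyte and germ granule lists summed lower in the same libraries, and the part of germline content in these values was not tested.

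Carbon metabolism held a smaller set of changes. Of 22 glycolysis and gluconeogenesis genes, 6 were higher and 1 lower (median 0.50), and 5 and 2 without replicate 1 of met-2(ok2307) cco-1. Aldo-1, an aldolase, had 614, 597 and 699 CPM in met-2(ok2307) cco-1 libraries, against 284, 254 and 279 CPM in N2 cco-1 libraries (1.23 ± 0.21, adjusted p = 0.000681). Pck-1, a phosphoenolpyruvate carboxykinase, had 1061, 810 and 714 CPM in the mutant and 376, 252 and 315 CPM in N2 (1.45 ± 0.24, adjusted p = 0.000586). The lactate dehydrogenase gene ldh-1 differed by 1.54 ± 0.32 (adjusted p = 0.00295). All 3 were separated between the strains. The tricarboxylic acid and glyoxylate cycles had 5 higher (20%) and 0 lower of 25. Over the genes tested 11.2% were higher and 9.59% lower. Fatty acid metabolism had 5 higher (12.8%, near that share) and 1 lower of 39, and 1 and 1 without replicate 1 of met-2(ok2307) cco-1. The propionate shunt and vitamin B12 cycle had 1 higher (4.35%) and 2 lower (8.7%) of 23, below both shares. Cytosolic ribosomal proteins had 1 higher (1.27%) and 2 lower (2.53%) of 79, far below both shares, and 0 and 3 without that library. Rps-23, a protein of the small subunit and 1 of the 2, had 5200, 5879 and 4905 CPM in the mutant and 13370, 8706 and 11410 CPM in N2 (-1.07 ± 0.25, adjusted p = 0.00571).

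Stress pathways outside the mitochondrion showed no common direction. In the unfolded protein response of the endoplasmic reticulum 5 of 21 genes were higher and 0 lower (median 0.41). Ckb-2, a choline kinase induced by that response, had 32.1, 24.0 and 28.6 CPM in met-2(ok2307) cco-1 libraries, against 8.43, 9.70 and 8.18 CPM in N2 cco-1 libraries (1.69 ± 0.24, adjusted p = 0.000182). The cytosolic heat shock response had 0 higher and 3 lower of 17. Hsp-70, an inducible Hsp70, had 1.37, 0.817 and 0.899 CPM in the mutant and 4.72, 6.67 and 6.54 CPM in N2 (-2.51 ± 0.42, adjusted p = 0.000581), and F44E5.5, of the same family, had 0.216, 0.341 and 1.16 CPM in the mutant and 7.75, 9.22 and 6.34 CPM in N2 (-3.92 ± 0.85, adjusted p = 0.00393). F44E5.5 and a neighbouring copy are close to identical, so its counts are uncertain. Of 22 DAF-16 target genes, 6 were higher and 3 lower, and lea-1, a desiccation protection gene, was one of the lower (-1.19 ± 0.22, adjusted p = 0.0011). Hypoxia response genes had 2 higher and 1 lower of 14, with the sulfide oxidase gene sqrd-1 at 20.6, 14.9 and 11.8 CPM in the mutant and 4.38, 3.40 and 3.12 CPM in N2 (2.12 ± 0.40, adjusted p = 0.00153). Heme and iron genes had 5 higher and 0 lower of 14, and 1 and 0 without replicate 1 of met-2(ok2307) cco-1; that 1 was hrg-7, a secreted protease of heme signaling (1.43 ± 0.22, adjusted p = 0.000296). Superoxide and peroxide defence genes had 2 higher and 1 lower of 18, the lower being trx-2, and 0 and 1 without that library. The shares higher, 14.3% for the hypoxia list and 11.1% for the superoxide and peroxide list, were near the 11.2% of the genes tested.

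Several single genes outside these groups differed strongly as well. Plk-3 (WBcel235 IV:7470860-7473209, minus strand), of the polo-like kinase family, had 0.360, 0.749 and 1.03 CPM in met-2(ok2307) cco-1 libraries, against 83.1, 131 and 91.0 CPM in N2 cco-1 libraries (-7.21 ± 0.45, adjusted p = 2.78e-08). On empty vector it had 0.762, 0.141 and 0.343 CPM in met-2(ok2307) and 194, 179 and 121 CPM in N2 worms. Its mutant levels were within a few times the level of 3 counts. In lin-65(n3441) cco-1 libraries plk-3 stood at 107, 74.0 and 61.3 CPM, near N2. Trx-2 (V:10314671-10315294, plus strand), a mitochondrial thioredoxin, had 22.1, 13.9 and 8.22 CPM in the mutant and 101, 102 and 105 CPM in N2 (-2.79 ± 0.35, adjusted p = 5.39e-05). It too stayed at 108, 111 and 127 CPM in lin-65(n3441) cco-1 libraries. Cin-4, a relative of DNA topoisomerase II, had 0.288, 0.953 and 0.899 CPM in the mutant and 6.58, 11.9 and 8.54 CPM in N2 (-3.67 ± 0.53, adjusted p = 0.000183).

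In the other direction bath-45 (II:13123020-13125189, plus strand), which encodes a BTB and MATH domain protein, had 21.0, 14.4 and 9.38 CPM in met-2(ok2307) cco-1 libraries, against 0.506, 0.364 and 0.307 CPM in N2 cco-1 libraries (5.25 ± 0.44, adjusted p = 1.59e-06). The N2 values rest on 6, 3 and 6 counts. Scrm-4 (I:11680899-11682441, minus strand), of the phospholipid scramblase family, had 94.0, 108 and 82.8 CPM in the mutant and 3.79, 3.27 and 3.53 CPM in N2 (4.74 ± 0.25, adjusted p = 2.35e-09). Far-3, a fatty acid and retinol binding protein, had 61.1, 29.6 and 23.1 CPM in the mutant and 2.61, 2.30 and 2.10 CPM in N2 (4.02 ± 0.44, adjusted p = 1.43e-05). The strains were far apart for these genes, whose N2 libraries all lay under 4 CPM. Separated libraries were a condition of the rule by which these genes were named. Levels were 13.6, 16.6 and 14.1 CPM for bath-45 and 36.2, 36.6 and 43.5 CPM for scrm-4 in lin-65(n3441) cco-1 libraries.

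C38D9.2 and F15D4.5 had the highest fold changes of the called genes that did not overlap and averaged 5 CPM or more in met-2(ok2307) cco-1; both are known here only by sequence names and are named after their values were seen. C38D9.2 had 158, 208 and 254 CPM in met-2(ok2307) cco-1 libraries, against 0.590, 0.849 and 0.971 CPM in N2 cco-1 libraries (7.97 ± 0.33, adjusted p = 1.01e-10). F15D4.5 had 176, 139 and 198 CPM in the mutant and 2.11, 2.18 and 1.89 CPM in N2 (6.38 ± 0.29, adjusted p = 2.83e-10). The mean on empty vector was 235 CPM in met-2(ok2307) and 1.01 CPM in N2 worms for C38D9.2, and 165 CPM in met-2(ok2307) and 1.34 CPM in N2 worms for F15D4.5. In lin-65(n3441) cco-1 libraries the means were 9.93 CPM for C38D9.2 and 116 CPM for F15D4.5, and the lin-65(n3441) level of F15D4.5 was the nearer of the 2 to that of met-2(ok2307) worms.

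Several gene families, those of bath-45 among them, did not move as wholes. BATH domain genes had 3 higher and 2 lower of 30, math genes 4 higher and 0 lower of 23, and F-box genes 17 higher and 12 lower of 134. Without replicate 1 of met-2(ok2307) cco-1 the counts were 2 and 0, 3 and 1, and 9 and 9. Of 1258 chemoreceptor genes listed, 74 had enough counts to test, and 10 were higher and 5 lower. Nuclear hormone receptors had 14 higher and 6 lower of 187. Shares higher were 10% (BATH), 17.4% (math), 12.7% (F-box), 13.5% (chemoreceptors) and 7.49% (nuclear hormone receptors), against 11.2% of the genes tested. Shares lower were 6.67%, 0%, 8.96%, 6.76% and 3.21% in that order, against 9.59%. Nhr-155, named for its rank among the highest fold changes, had 54.0, 35.1 and 17.2 CPM in met-2(ok2307) cco-1 and 3.29, 1.46 and 4.86 CPM in N2 cco-1 libraries (3.43 ± 0.63, adjusted p = 0.00122). Members of these families that are close copies may share reads.

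The strain difference on empty vector came from libraries that are separate from those compared above. It held 2306 higher and 2310 lower genes (15.3% each, 30.5% together). Of the genes called on both diets, 1760 had the same direction (885 higher, 875 lower) and 6 the opposite; the 1760 were 55.9% of the calls under cco-1 RNAi and 38.1% of those on empty vector. Across the 15110 genes, which are not independent replicates, the fold changes of the 2 diets had a Pearson r of 0.594 and a Spearman rho of 0.534, as a description. Scrm-4 differed by 4.78 on the log2 scale on empty vector (adjusted p = 2.02e-09), col-41 by 5.06 (1.4e-05), plk-3 by -8.54 (3.86e-09), rrf-2 by 3.17 (4.86e-05) and trx-2 by -4.19 (2.66e-06). Oocyte genes had 1 higher and 14 lower of 24 on empty vector, neuron genes 12 higher and 0 lower of 22, C-type lectins 56 higher and 13 lower of 129, and mitochondrial chaperones and proteases 0 higher and 1 lower of 13. The unfolded protein response of the endoplasmic reticulum had 15 higher and 0 lower of 21 on empty vector (median 1.05), against 5 higher under cco-1 RNAi (median 0.41). Hsp-60 was not called on empty vector (0.038, adjusted p = 0.899), nor was hsp-6 (1.13, adjusted p = 0.0502).

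A test of the difference between the diets, the strain difference under cco-1 RNAi minus that on empty vector, called 0 of 15110 genes (0%) with edgeR, with 2603 at an unadjusted p under 0.05. DESeq2 called 56 genes with a positive and 93 with a negative difference. With replicate 1 of met-2(ok2307) cco-1 and of lin-65(n3441) EV left out, edgeR called 18 and 113, and 3 vitellogenins were among the 113. The smallest adjusted p among the 18 libraries was 0.062. Several genes shared it, among them vit-2 (difference -3.91 ± 0.68), vit-6 (-4.41 ± 0.77) and ule-5 (-3.92 ± 0.69). With 16 libraries the adjusted p-values of these genes were 0.0195, 0.0121 and 0.0195. Other genes, not named here, shared the value of 0.062 too. With 16 libraries some of these had negative differences and some positive ones (2.413 and 1.435 among the positive). Mlc-7, a myosin light chain gene named here after its values were seen, also had the adjusted p of 0.062 (-2.07 ± 0.34). It had 17.4, 15.7 and 10.9 CPM in met-2(ok2307) cco-1 and 84.1, 91.3 and 79.3 CPM in N2 cco-1 libraries, against 40.5, 52.7 and 33.2 CPM in met-2(ok2307) EV and 49.2, 65.5 and 58.2 CPM in N2 EV libraries. The difference between diets was 2.93 ± 0.64 for bath-45 (adjusted p = 0.111), 1.59 ± 0.35 for ugt-66 (0.116), -1.44 ± 0.30 for lea-1 (0.0922), 0.71 ± 0.29 for hsp-60 (0.258) and -0.032 ± 0.32 for scrm-4 (0.965).

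**Figure D5:**
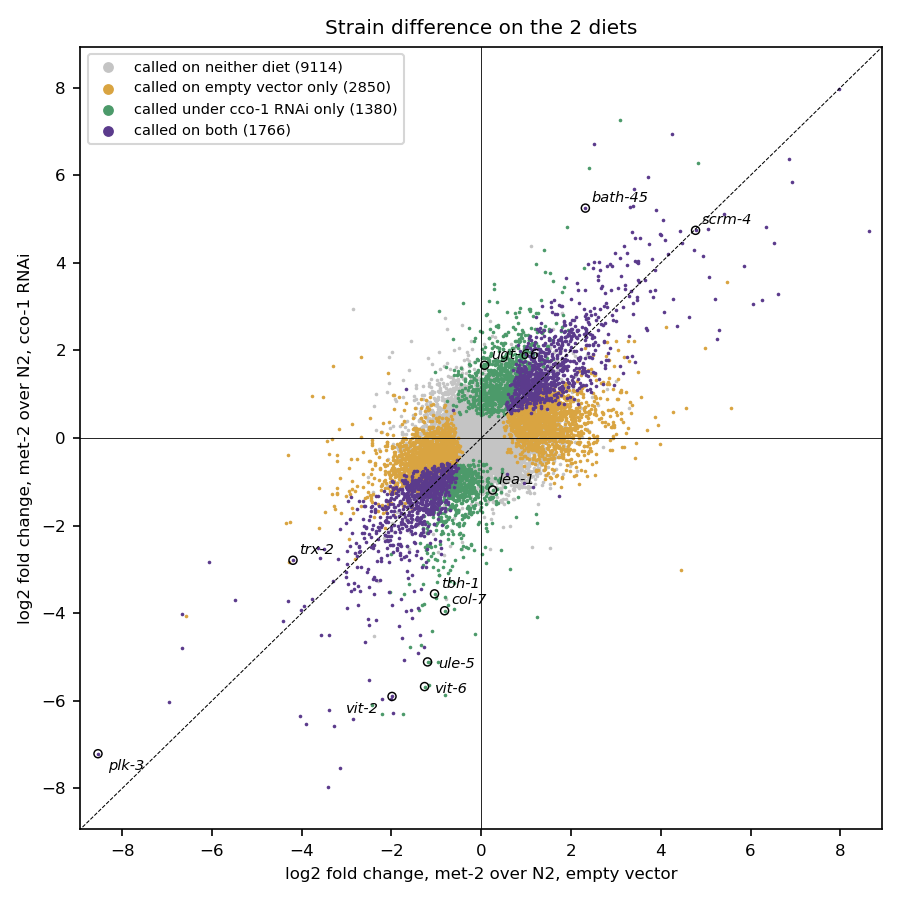
Each point is 1 of 15110 genes, with the log2 fold change of met-2(ok2307) over N2 on empty vector on the x axis and under cco-1 RNAi on the y axis; colours give the diets on which the gene was called at an adjusted p under 0.05 and the dashed line marks equal values. Scrm-4 lies on the line (4.78 and 4.74), while vit-2, vit-6 and ule-5 lie below it, with larger negative values under cco-1 RNAi.

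The share of genes called varied between chromosomes. On chromosome V 16.6% of 3014 tested genes were higher and 9.02% lower, against 7.65% higher and 10.6% lower of 2432 on chromosome I and 11.5% higher and 6.01% lower of 2112 on the X chromosome. The median log2 fold change was 0.17 on chromosome V, 0.19 on the X chromosome and between -0.11 and -0.03 on the other 4 autosomes. With each chromosome cut into 3 segments of equal length, in the outer segments of the autosomes, which in worms hold more H3K9 methylation and repeats, 12.5% of 7406 genes were higher and 9.24% lower; in the middle segments 9.51% of 5417 were higher and 11.6% lower. The X chromosome ran the other way, with 10.2% higher in its outer and 13.6% in its middle segments, and on chromosome II the share lower was 11.7% in the outer and 9.62% in the middle segments. These are shares of these libraries without a test, and neighbouring genes and gene families are not independent. Pseudogenes had 6.75% higher and 12.7% lower of 237. The share called higher also went with transcript length, with 16.5% in the shortest class and 5.49% in the longest class, and the median log2 fold changes of these 2 classes, 0.27 and -0.06, became -0.06 and 0.13 without replicate 1 of met-2(ok2307) cco-1.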

How the data were processed

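The authors deposited 1 table of whole-number read counts per gene model for each of 18 libraries (20505 models). Per the submitters' processing notes Bowtie 0.12.7 and DESeq were used; the labels name no build or annotation and do not say how strand and shared reads were counted. Models were named by their sequence names in the Ensembl 115 annotation of WBcel235 (20074 matched, 431 with 0.148% of counts did not), and 9 mitochondrial genes by RefSeq. Models that passed edgeR's expression filter (15110) were tested with edgeR 4.0.16 (R 4.3.3, TMM scaling, robust quasi-likelihood test, two-sided) in 1 fit of 6 group means over 18 libraries, with Benjamini-Hochberg adjustment over all genes tested and a threshold of 0.05. CPM are counts per 1000000 of the scaled library total. Alternatives included DESeq2 1.42.0. The fit was tested on simulated counts.

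Members and the 48 gene lists were chosen with earlier results of these data known; lists are described by counts and medians, with no set test. Genes were named by a rule: the RNAi target, met-2, lin-65, hsp-6 and hsp-60; the 15 highest and 15 lowest fold changes among called genes with separated libraries, a letters-number symbol and at least 5 CPM in the higher group; the 5 called genes with most CPM in each direction; and in each list up to 4 members with the smallest p. The text describes a selection of these genes, and mlc-7, C38D9.2 and F15D4.5 were added after their values were seen. Replicate pairs differed by more than sampling noise, so each library counted once.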

Additional observations from a re-analysis of the deposited data

How the results depend on the processing

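Of the 89 called genes named here, 55 were called under each of 14 alternatives, 34 were lost under at least 1, and 0 changed sign. Fitting the 6 libraries alone gave 744 higher and 603 lower genes (1347 together), and the fit with 16 libraries 1975 and 2423. Leaving out 1 library at a time gave 1050 to 1656 higher, 862 to 1678 lower and 1912 to 3016 called. An alternative chosen after seeing the data, the fit of the comparison's libraries alone without replicate 1 of met-2(ok2307) cco-1, gave 2117 higher, 2323 lower and 4440 called. DESeq2 gave 2095 and 1749, and 3844 called. For the difference between diets, the genes called with a positive sign, a negative sign and in all were 1, 11 and 12 without the filter, 0, 4 and 4 with the 12 libraries alone, 18, 113 and 131 with 16 libraries, 77, 376 and 453 with the added alternative, 56, 93 and 149 by DESeq2, and 0 to 1, 0 to 10 and 0 to 11 without 1 library. The cause was not tested. The log2 fold change of lin-65 was 0.035, 0.037 and 0.051 with 16 libraries, without replicate 1 of met-2(ok2307) cco-1 and with the added alternative, and it ranged from -0.775 to 0.037 without 1 library. That of hsp-6 was -0.22 without replicate 3 of met-2(ok2307) cco-1 and ranged from -0.22 to 0.696.

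Between met-2(ok2307) cco-1 and N2 cco-1, same-numbered libraries showed little common deviation over all genes. Their deviations from the group means correlated at -0.0945, -0.0977 and 0.13. Other pairs of groups were not compared in this way, and a replicate effect shared by some genes was not tested. With the replicate block over 18 libraries 1852 genes were higher and 1807 lower, and the difference between diets had 3, 29 and 32 calls; with the block over the 6 libraries 212 were higher, 241 lower and 453 called, and over the 12 libraries the difference had 0, 7 and 7. Of 288 list counts under 3 alternatives, 60 moved by more than 1.5 times. Depth limits genes near the level of 3 counts, such as plk-3 in the mutant and bath-45 in N2.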
